A study of Mus musculus with 8 samples.

Results

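This report covers 9 receptors through which haematopoietic cells find and hold their place in bone marrow, measured as RNA in a mouse leukaemia line. They were taken as the rows of the count table whose Ensembl gene IDs map in GENCODE M21 to Cxcr4, Itga4, Itgb1, Itgal, Itgb2, Itga6, Cd44, Selplg and S1pr1, and all 9 were found among 21859 gene IDs. The rule takes the genes by name and applies no measured value, but earlier results of these data were known when it was written. The cells were PER-M60, labelled only as a leukaemia cell line, so every culture represents 1 line. There were 4 cultures in control media and 4 in osteoclast-conditioned media, that is, medium taken from osteoclasts, the multinucleated cells that resorb bone. The labels give no genotype, added agent, culture time, composition of the control media or source of the osteoclasts. The comparison asks which transcripts of the leukaemia cells differ between the media.

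Bone marrow retention works by a sequence of contacts. CXCR4 senses the chemokine CXCL12 made by marrow stroma and signals through a G protein to integrins, which then bind tightly to their ligands. Integrins are pairs of an alpha and a beta chain: Itga4 with Itgb1 encodes VLA-4, a receptor for VCAM1 and fibronectin; Itga6 with Itgb1 encodes a laminin receptor; and Itgal with Itgb2 encodes LFA-1, a receptor for ICAMs. CD44 binds hyaluronan, and PSGL-1, the product of Selplg, is the scaffold of the selectin ligand used for rolling. S1PR1 senses sphingosine-1-phosphate and acts in the opposite sense, drawing cells out into blood.

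Total counts were between 15391754 and 21637966 per culture. The 9 markers of the B lineage, such as Cd79a and Pax5, all passed the filter on low counts, with a summed level of 4394 to 4424 normalised CPM (read counts relative to the library total, after TMM scaling between libraries) in control media and 4675 to 4708 in osteoclast-conditioned media. Of 10 osteoclast markers 2 passed it, Acp5 and Itgb3. The summed level of that list was 35.8 to 37.2 CPM in control and 34.4 to 37.9 in osteoclast-conditioned media, and Ocstamp and Dcstamp had 0 counts in every culture. Monocyte and macrophage markers (8 genes, 3 past the filter, C1qa at 0) summed to 21.02 to 22.7 and 21.9 to 25.5 CPM. The T cell markers (5 genes, Cd3g and Cd8a at 0) summed to at most 0.175 CPM in any culture, and the stromal markers (6 genes, Col1a2 and Pdgfra at 0) to at most 0.161 CPM. Osteoclast-conditioned replicate 4 stood apart in its mitochondrial share of counts, 1.44% against 1.16 to 1.19% in the other cultures of its medium. The control cultures were at 0.903 to 1.16%, and control replicate 2, the lowest, also stood apart. The chi-square per degree of freedom between its gene counts and those of the other controls was 3.37 to 5.26, against 1.78 to 2.50 among those 3. For osteoclast-conditioned replicate 4 it was 2.60 to 2.83, against 1.38 to 1.58 among the other cultures of that medium. Without osteoclast-conditioned replicate 4 the 5 calls described below all held, with log2 fold changes of 0.46 for Itgal, 0.26 for Itga6, 0.23 for Itga4, 0.22 for Itgb2 and -0.18 for Selplg. Without control replicate 2 they held too, at 0.48, 0.28, 0.23, 0.22 and -0.18 in the same order, and Cxcr4 was called as well (below).

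The upstream sequences of the partners of VLA-4 are shown because Itga4 and Itgb1, the chains of 1 receptor, did not change alike (below). Each is the 250 bases before the gene's start, 5′ to 3′ on the gene's strand, from the RefSeq promoter table on GRCm38.p6, which held 4 of the 9 receptors (Cxcr4, Itga4, Itgb1 and Cd44). Itga4 is at chr2:79255176-79255425 and Itgb1 at chr8:128685404-128685653, both on the plus strand. Capitals mark the GC box GGGCGG, searched on both strands.
Itga4: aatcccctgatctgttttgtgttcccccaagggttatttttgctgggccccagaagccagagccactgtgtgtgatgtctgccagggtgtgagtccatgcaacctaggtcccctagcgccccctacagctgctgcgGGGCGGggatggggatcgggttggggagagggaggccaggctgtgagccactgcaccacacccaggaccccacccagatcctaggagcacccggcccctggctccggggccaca
Itgb1: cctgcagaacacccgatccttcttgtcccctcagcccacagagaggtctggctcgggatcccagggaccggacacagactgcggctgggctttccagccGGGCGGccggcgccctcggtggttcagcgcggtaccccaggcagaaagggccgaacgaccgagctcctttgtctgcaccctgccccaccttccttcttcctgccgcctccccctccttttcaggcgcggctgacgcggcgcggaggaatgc
Each window holds 1 GC box, which 32.7% of the 32851 promoter windows of that length also hold. The Cxcr4 window holds 3 and the Cd44 window 0. The letters of an ATF4-C/EBP composite site (TGATGNAA, in 3.45% of windows), a FOXO site (GTAAACA, 3.17%) and an ETS site (CCGGAAG, 6.91%) are in none of the 4 windows. No match overlapped a match to another motif.

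Of the 9 receptors, 4 were higher and 1 was lower in osteoclast-conditioned media, and 4 did not pass the test. The alpha chain of LFA-1 rose most, the alpha chains of VLA-4 and of the laminin receptor rose less, and the beta chain that those 2 share did not pass the test. Selplg fell. Itgb2, the beta chain of LFA-1, also rose. All 9 passed the filter on low counts. The test was edgeR's quasi-likelihood test over 10729 genes with Benjamini-Hochberg adjustment and a threshold of 0.05, by which 30.5% of all tested genes were called, 15.7% as higher and 14.8% as lower. Among the 4536 tested genes whose mean reached 50 CPM, 41.7% were called. The mean of 8 of the 9 receptors reached that level, and all 5 calls were among those 8. The count is not read as a result about the receptors, and no excess over that share was tested. The median log2 fold change was 0.13 for the receptors and -0.01 for all tested genes. The groups of cultures did not overlap in 5 receptors, against 28.2% of all tested genes. In bulk RNA, a change in the number of cells that express a gene and a change in RNA per cell cannot be told apart.

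**Figure D1:**
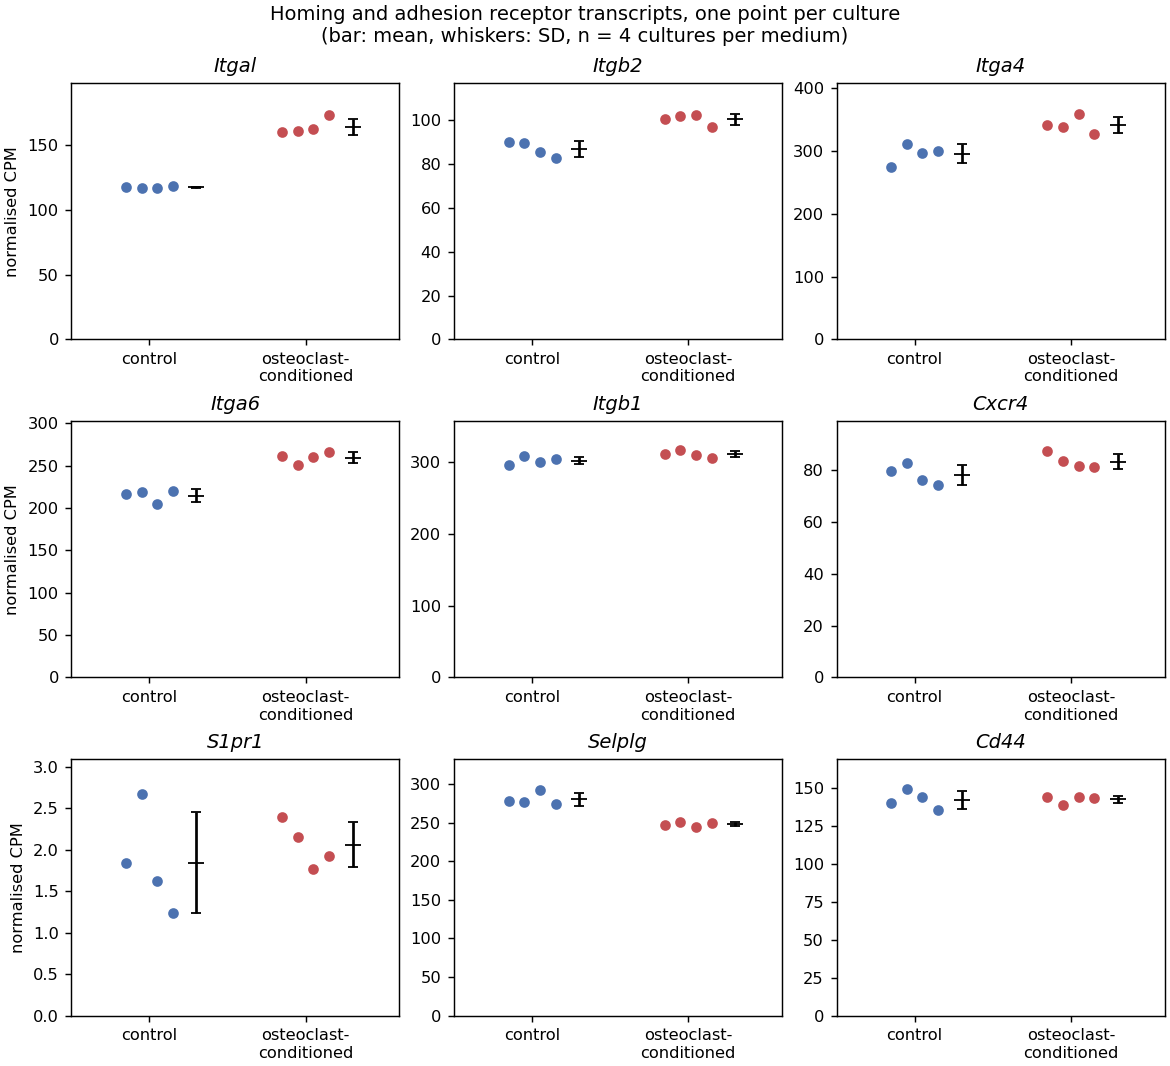
Normalised CPM (vertical axes, from 0) of each receptor in every culture, by medium; points are cultures, the bar is the mean and whiskers are the SD (n = 4). Itgal, Itgb2, Itga4 and Itga6 are higher and Selplg is lower in osteoclast-conditioned media with no overlap, while the points of Itgb1, Cxcr4, S1pr1 and Cd44 overlap.

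LFA-1 is the integrin with which lymphocytes bind ICAMs on other cells. Itgal (ENSMUSG00000030830; chromosome 7, 127296260 to 127335138 in GRCm38, plus strand) was at 117, 117, 117 and 118 normalised CPM in control replicates 1 to 4 and at 160, 161, 163 and 173 in osteoclast-conditioned replicates 1 to 4. Every osteoclast-conditioned culture was above every control culture, and replicate 4 was the highest. The means were 118 ± 0.495 and 164 ± 6.10 (SD, n = 4 each), a rise of 1.40-fold with a 95% interval of 1.34 to 1.46 (log2 fold change 0.48 with SE 0.03, edgeR adjusted p = 4.07e-13). Itgal ranked 22 by p-value among the tested genes, and 3.43% of tested genes changed by more in either direction. It was the 1 receptor of the 9 that passed edgeR's test against a change of 1.2-fold, which 2.12% of all tested genes passed.

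Itgb2 (ENSMUSG00000000290; chromosome 10, 77530252 to 77565708, plus strand), the beta chain common to LFA-1 and the myeloid integrins, rose less than its partner. It was at 90.3, 89.7, 85.5 and 82.7 normalised CPM in control replicates 1 to 4, and at 101, 102, 102 and 96.9 in osteoclast-conditioned replicates 1 to 4. The groups did not overlap, and osteoclast-conditioned replicate 4, the highest in Itgal, was the lowest of its medium in Itgb2. The rise was 1.15-fold (95% interval 1.10 to 1.21, log2 fold change 0.21 with SE 0.04, edgeR adjusted p = 3.41e-05). Other alpha chains that pair with Itgb2 were scarce. Itgax had 11 counts over all cultures. Itgad, which had 3 to 23 counts per culture, went from 0.337 ± 0.120 to 1.08 ± 0.136 normalised CPM (log2 fold change 1.67 with SE 0.31, edgeR adjusted p = 0.000108). Itgam had 0 counts, but 99.1% of its exon bases lie within the span of another listed gene, Gm49368, and 68.7% in its exons, so its count gives no measure of it. Of the 3 tested monocyte and macrophage markers, whose sums overlap between media (above), Lyz2, a lysozyme, was called higher, at 4.46 ± 0.406 and 5.91 ± 0.865 normalised CPM (log2 fold change 0.40, edgeR adjusted p = 0.0119), and 0 were lower. Its part in the rises of Itgb2 and Itgad was not tested.

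VLA-4 is the integrin by which precursor B cells hold to VCAM1 on marrow stroma. Its alpha chain Itga4 (ENSMUSG00000027009; chromosome 2, 79255426 to 79333123, plus strand) was at 276, 312, 296 and 301 normalised CPM in control replicates 1 to 4. In osteoclast-conditioned replicates 1 to 4 it was at 341, 339, 359 and 328. The groups did not overlap, and control replicate 1 was the lowest culture. The rise was 1.15-fold (95% interval 1.10 to 1.21, log2 fold change 0.21 with SE 0.03, edgeR adjusted p = 3.95e-05). Of the exon bases of Itga4, 18.5% lie within the span of Cerkl on the opposite strand and 8.04% in its exons. Whether the counting used strand is not given in the sources used here, so reads from that stretch cannot be assigned.

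Itga6 (ENSMUSG00000027111; chromosome 2, 71745616 to 71858416, plus strand), the laminin-binding alpha chain, was at 216, 219, 204 and 220 normalised CPM in control replicates 1 to 4. It was at 261, 251, 260 and 266 in osteoclast-conditioned replicates 1 to 4. Again every osteoclast-conditioned culture was above every control culture. The rise was 1.21-fold (95% interval 1.16 to 1.26, log2 fold change 0.27 with SE 0.03, edgeR adjusted p = 1.66e-08). Counts per gene do not separate its splice forms.

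Itgb1 (ENSMUSG00000025809; chromosome 8, 128685654 to 128733200, plus strand), the beta chain that pairs with Itga4 and Itga6, was at 297, 309, 300 and 304 normalised CPM in control replicates 1 to 4 and at 312, 317, 310 and 306 in osteoclast-conditioned replicates 1 to 4. The groups overlapped, since control replicate 2 was above osteoclast-conditioned replicate 4. The log2 fold change was 0.04 (SE 0.03, 95% interval -0.01 to 0.09, edgeR adjusted p = 0.253). The upper end of the interval corresponds to a 1.07-fold rise.

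**Figure D2:**
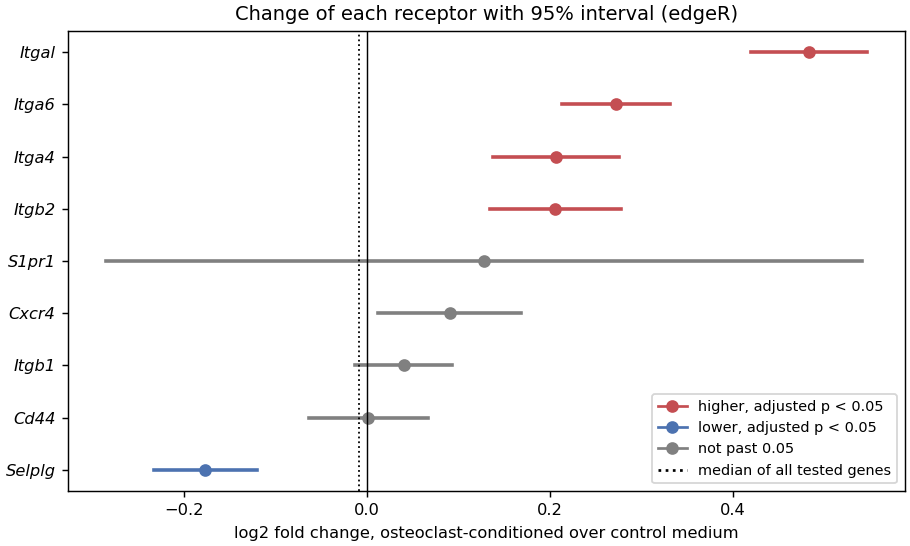
Log2 fold change of each receptor between media (horizontal axis; points with 95% intervals from edgeR, n = 4 cultures per medium), with the median of all tested genes dotted. Itgal lies highest at 0.48 and Selplg lowest at -0.18; the interval of S1pr1 is the widest, from -0.28 to 0.54.

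Because the chains of an integrin are counted in the same library, their count ratio does not depend on scaling between libraries. The ratio of Itga4 to Itgb1 counts was 0.929, 1.01, 0.987 and 0.989 in control replicates 1 to 4 and 1.09, 1.07, 1.16 and 1.07 in osteoclast-conditioned replicates 1 to 4. That of Itga6 to Itgb1 was 0.680 to 0.728 in control and 0.792 to 0.869 in osteoclast-conditioned media. That of Itgal to Itgb2 was 1.30, 1.31, 1.37 and 1.43 in control replicates 1 to 4 and 1.59, 1.58, 1.59 and 1.79 in osteoclast-conditioned replicates 1 to 4. In each of the 3 ratios all osteoclast-conditioned cultures were above all control cultures. The log2 ratio was higher by 0.17 for Itga4 to Itgb1, from -0.03 ± 0.05 to 0.14 ± 0.05 (SD, n = 4 each). It was higher by 0.23 for Itga6 to Itgb1, from -0.49 ± 0.04 to -0.26 ± 0.06, and by 0.27 for Itgal to Itgb2, from 0.43 ± 0.06 to 0.71 ± 0.09. By exact permutation, two-sided, p was 0.0286 for each ratio, the smallest that 4 against 4 cultures allow, and 0.0286 after Benjamini-Hochberg adjustment over the 3 ratios. The ratios of Itga4 and of Itga6 share the counts of Itgb1, so they are not independent of each other. Without osteoclast-conditioned replicate 4 the difference in Itgal to Itgb2 was 0.23.

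**Figure D3:**
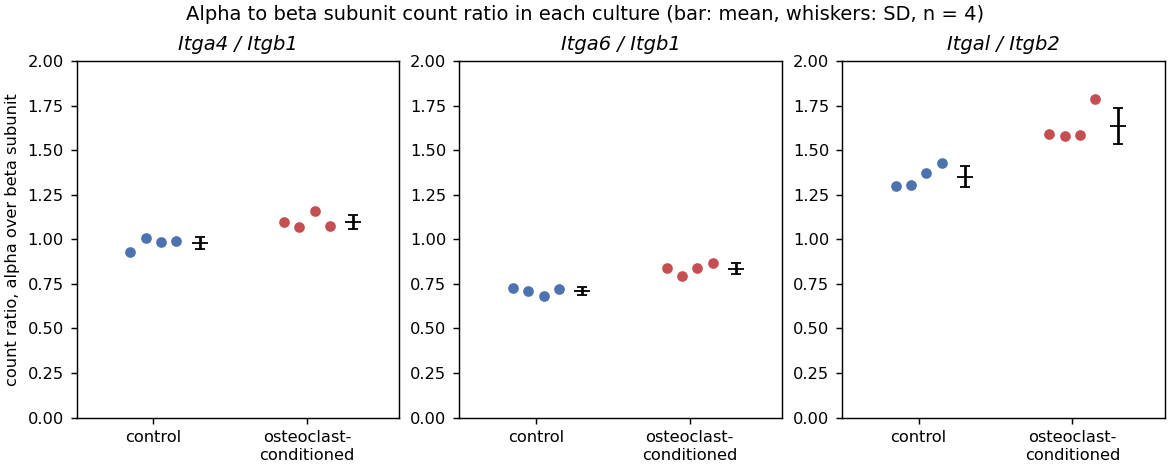
Ratio of alpha to beta chain counts (vertical axis, from 0) in each culture for the 3 integrin pairs; points are cultures, the bar is the mean and whiskers are the SD (n = 4). In each pair the osteoclast-conditioned cultures lie above the control cultures, and replicate 4 lies highest in Itgal over Itgb2, at 1.79.

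Cxcr4 (ENSMUSG00000045382; chromosome 1, 128588199 to 128592293, minus strand), the receptor for CXCL12, was at 79.6, 82.5, 76.1 and 74.0 normalised CPM in control replicates 1 to 4. It was at 87.1, 83.3, 81.3 and 81.0 in osteoclast-conditioned replicates 1 to 4. The groups overlapped: control replicate 2 was above osteoclast-conditioned replicates 3 and 4. The log2 fold change was 0.09 (SE 0.04, 95% interval 0.01 to 0.17), with an unadjusted p of 0.0239 and an edgeR adjusted p of 0.0709, so Cxcr4 did not pass the threshold. Leaving out control replicate 2 gave a log2 fold change of 0.12 with an edgeR adjusted p of 0.0115, which does pass it. Over the removals of single cultures the adjusted p ran from 0.0115 to 0.235.

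S1pr1 (ENSMUSG00000045092; chromosome 3, 115710433 to 115715072, minus strand), the egress receptor, had the lowest counts of the 9 receptors, with 22 to 58 per culture. It was at 1.84, 2.68, 1.62 and 1.24 normalised CPM in control replicates 1 to 4, and at 2.39, 2.16, 1.77 and 1.93 in osteoclast-conditioned replicates 1 to 4. The groups overlapped and control replicates 2 and 4 were the highest and lowest of all cultures. The log2 fold change was 0.13 (SE 0.20, edgeR adjusted p = 0.670), and its 95% interval, -0.28 to 0.54, allows a change of up to 1.46-fold upwards. The value was 0.40 without control replicate 2 and -0.02 without control replicate 4, so its size and sign rest on single cultures. The coefficient of variation of the control cultures was 32.9%, against 18.4% from counting alone.

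Selplg (ENSMUSG00000048163; chromosome 5, 113818536 to 113832644, minus strand), which encodes PSGL-1, was the receptor that fell. It was at 278, 277, 293 and 274 normalised CPM in control replicates 1 to 4. In osteoclast-conditioned replicates 1 to 4 it was at 247, 251, 244 and 250. Every osteoclast-conditioned culture was below every control culture. The level was 0.885 times that of control media (95% interval 0.851 to 0.920, log2 fold change -0.18 with SE 0.03, edgeR adjusted p = 1.04e-05).

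Cd44 (ENSMUSG00000005087; chromosome 2, 102811141 to 102901665, minus strand), the hyaluronan receptor, was at 140, 150, 144 and 136 normalised CPM in control replicates 1 to 4 and at 144, 139, 144 and 144 in osteoclast-conditioned replicates 1 to 4. The control cultures lay on both sides of the osteoclast-conditioned ones. The log2 fold change was 0.00 (SE 0.03, 95% interval -0.06 to 0.07, edgeR adjusted p = 0.975), and its sign turned with total-count scaling, upper-quartile scaling or the removal of some single cultures. Counts per gene cannot show a switch among the variant exons of Cd44.

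Levels of different genes were compared only per length, as normalised CPM per kilobase of merged exon. Itgb1 was at 75.2 CPM per kilobase (range over the 8 cultures 72.7 to 77.6), Selplg at 61.9 (57.2 to 68.6) and Cxcr4 at 44.6 (40.9 to 48.2), and these 3 ranges did not overlap. Itgb2 (30.7), Itga6 (26.3), Itga4 (22.8), Itgal (21.4) and Cd44 (21.02) followed, and the range of each overlapped that of the next. S1pr1 was at 0.641 (0.408 to 0.878), apart from all the others. The order depends on the length used: with the longest annotated transcript in place of merged exons, Selplg was at 114, Itgb1 at 80.4, Itga6 at 55.0 and Cxcr4 at 44.7 CPM per kilobase. Under both lengths each alpha chain had a lower mean level than its beta chain, but with the longest transcript the ranges of Itgal and Itgb2 overlapped.

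By Pearson correlation of log2 CPM over the 8 cultures, the genes most like Itgal, the receptor with the smallest p-value, were Heg1 (r = 0.996), Eif4ebp1 (0.995) and Pde8a (0.993). These values are a description: both media enter them, so any gene with a clean difference between media scores high. Heg1 went from 106 ± 1.30 to 128 ± 2.10 and Eif4ebp1 from 95.4 ± 2.24 to 128 ± 3.45 normalised CPM (SD, n = 4 each).

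Around the 9 receptors, 9 lists of 242 genes were examined, of which 169 passed the filter. In all, 47 were called higher and 19 lower (39.1% of those tested, against 30.5% of all tested genes and 41.7% of those whose mean reached 50 CPM). Of the 242 genes 22 had 0 counts throughout, and 8 of those have at least 99% of their exon bases inside another listed gene.

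Among other chemoattractant receptors, 13 of 28 were tested, 5 were called higher and 0 lower, with a median log2 fold change of 0.11. With the filter of a mean of at least 50 counts, or with an adjusted p under 0.01, 3 were called. Ccr2, a receptor of inflammatory chemokines, rose from 12.0 ± 1.07 to 16.8 ± 1.16 normalised CPM (log2 fold change 0.49, SE 0.07). The cannabinoid receptor Cnr2 (0.50) and the follicle-homing receptor Cxcr5 (0.85) rose from low levels of 2.04 and 0.795 CPM. The edgeR adjusted p of these 3 was 0.0193 or less. The call of Cxcr5 was lost without control replicate 1 (adjusted p = 0.0604), and that of Cnr2 without control replicate 2 (0.0672) or osteoclast-conditioned replicates 1 (0.0645) or 3 (0.0619). Cnr2 also missed the threshold by DESeq2 (adjusted p = 0.0760) and after thinning to the smallest library (0.0675). The S1P receptor S1pr4 was at 20.3 ± 1.43 and 21.9 ± 1.96 CPM and did not pass the test (edgeR adjusted p = 0.206). Ackr3, a second receptor for CXCL12, had 0 counts in every culture. That allows up to 0.139 to 0.195 CPM per culture (3 counts over the library total without TMM scaling, counting error only).

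Of 22 other integrin chains 7 were tested, 2 were higher (3 without osteoclast-conditioned replicate 4) and 1 lower (2 without control replicate 2). With DESeq2, which gave Itgad no adjusted p, and with a filter of a mean of at least 50 counts, which Itgad does not pass, 1 was higher. Besides Itgad (above), Itga9, another partner of Itgb1, rose from 9.97 ± 0.640 to 12.3 ± 0.655 normalised CPM (log2 fold change 0.30 with SE 0.08, edgeR adjusted p = 0.00317). Itgb3, the beta chain of the vitronectin receptor and 1 of the osteoclast markers, fell from 12.9 ± 1.41 to 10.7 ± 0.376 (-0.25 with SE 0.08, edgeR adjusted p = 0.0185), and its call was lost without control replicate 1 (0.0744) or control replicate 3 (0.0879). Its partner Itgav, at 65.6 ± 1.34 and 69.6 ± 4.65 CPM, did not pass the test (edgeR adjusted p = 0.119), but passed it without osteoclast-conditioned replicate 4 (0.00805).

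The proteins that switch integrins on and tie them to actin included 30 tested genes of 36, with 9 higher, 2 lower and a median of 0.08. Without single cultures 6 to 10 were higher and 1 to 3 lower, with 1 lower without control replicate 1 or 2 or osteoclast-conditioned replicate 1 or 2. Slc3a2, the CD98 heavy chain, which binds integrin beta tails and also carries amino acid transporters, rose from 287 ± 5.42 to 388 ± 7.33 normalised CPM (log2 fold change 0.44 with SE 0.03, edgeR adjusted p = 1.09e-13). Parvg, a parvin that links integrins to actin, rose by 0.25 (SE 0.03) and Cyth1, a cytohesin that binds the LFA-1 beta tail, by 0.13 (SE 0.03). Sharpin, which keeps beta-1 integrins inactive, fell by 0.18 on the log2 scale (edgeR adjusted p = 0.00394). Sipa1, which turns off the integrin activator Rap1, was at 395 ± 12.0 and 399 ± 9.67 CPM (edgeR adjusted p = 0.763).

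Genes for ligands of the receptors were tested in 11 of 25 cases, with 2 higher and 3 lower. Lamc1, the laminin chain common to most laminins, rose from 349 ± 3.56 to 413 ± 7.18 normalised CPM (log2 fold change 0.24, SE 0.03), and Fn1, fibronectin, rose by 0.32 (SE 0.09) from 10.2 CPM in control media. Spp1, osteopontin, fell by 0.32 (SE 0.07) and Icam2, a ligand of LFA-1, by 0.28 (SE 0.06). Their edgeR adjusted p were 0.00523 or less. Icam1, also a ligand of LFA-1, was at 31.2 ± 0.990 and 31.1 ± 2.75 CPM. Cxcl12, Vcam1 and Sele had 0 counts in every culture and overlap no listed gene.

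Of 21 glycosylation enzymes and transporters that build selectin ligands, 18 were tested, 3 were higher and 4 lower, with a median of -0.01. Gcnt1, the branching enzyme needed on PSGL-1 for selectin binding, fell from 9.31 ± 0.340 to 7.45 ± 0.713 normalised CPM (log2 fold change -0.32 with SE 0.09, edgeR adjusted p = 0.00604). Fuk, the fucose salvage kinase, fell by 0.25 (edgeR adjusted p = 0.0406), a call that was lost without any 1 of 5 cultures, with adjusted p up to 0.221 without control replicate 4, and that DESeq2 (0.102) and limma-voom (0.0607) did not make. B4galt1, a galactosyltransferase, rose from 191 ± 4.51 to 226 ± 3.87 (0.24 with SE 0.03, edgeR adjusted p = 7.05e-08). St3gal3, a sialyltransferase, rose by 0.18 (edgeR adjusted p = 0.0126), with the call lost without control replicate 2 (0.0639). Galnt1, which starts the mucin-type sugar chains, was at 168 ± 9.52 and 166 ± 3.56 CPM (edgeR adjusted p = 0.765). Without osteoclast-conditioned replicate 1, 4 genes of this list were called in place of 7.

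**Figure D4:**
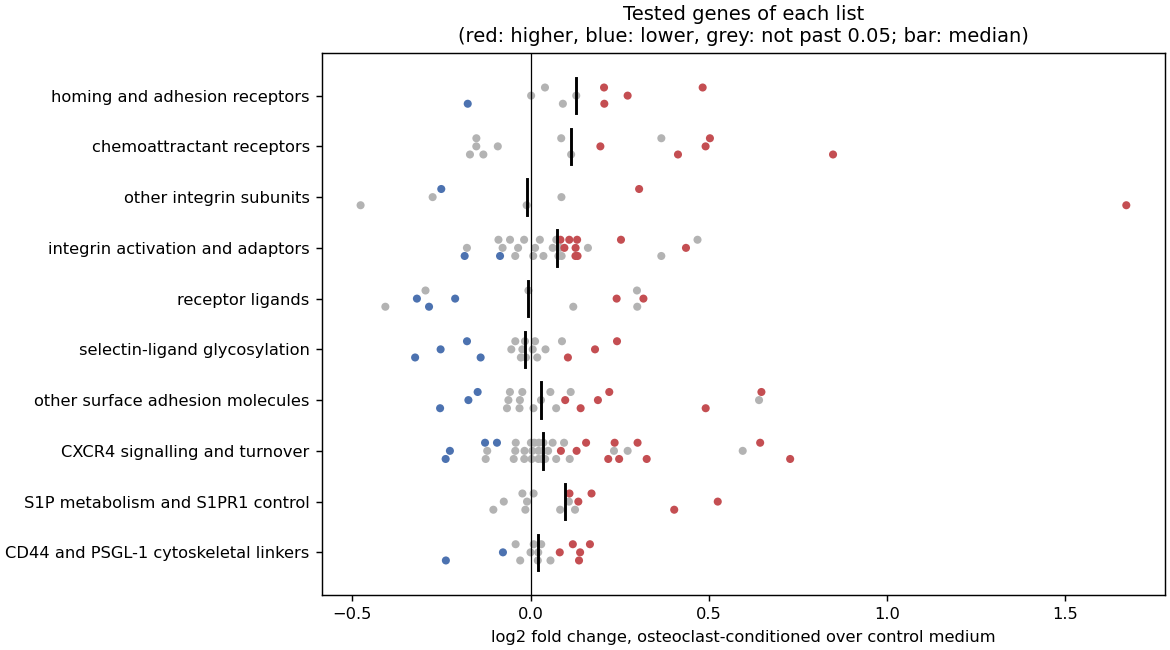
Log2 fold change between media (horizontal axis) of every tested gene of the 9 receptors and of the 9 lists around them; red points were called higher, blue lower and grey neither by edgeR (adjusted p under 0.05), and bars are list medians. The medians of the lists lie between -0.01 and 0.11, and Itgad stands farthest out at 1.67.

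Among 30 other surface adhesion molecules 21 were tested, 6 were higher and 3 lower. The tetraspanins Cd82 and Cd53, membrane organisers that associate with integrins, rose from 14.7 ± 1.98 to 23.2 ± 1.50 (log2 fold change 0.65, SE 0.08) and from 139 ± 12.9 to 196 ± 6.28 normalised CPM (0.49, SE 0.06). Pecam1, a homophilic adhesion receptor, rose by 0.22 (SE 0.04), and Slamf6, a receptor of the SLAM family, fell by 0.25 (SE 0.05). All 4 had edgeR adjusted p of 0.000231 or less. Cd93 was at 769 ± 15.6 and 785 ± 20.6 CPM and did not pass the test (edgeR adjusted p = 0.428).

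CXCR4 signals through Gi proteins, Rac exchange factors and kinases that shut it down. Of 44 such genes 40 were tested, 10 were higher and 4 lower, with a median of 0.04. Dock2 and Dock8, exchange factors that drive lymphocyte migration, rose from 368 ± 4.26 to 461 ± 8.64 (log2 fold change 0.33, SE 0.03) and from 212 ± 8.63 to 261 ± 6.84 normalised CPM (0.30, SE 0.03). Cd74, the invariant chain and a receptor for MIF, rose by 0.64 (SE 0.08) to 14.9 CPM, and the receptor kinase Grk5 by 0.73 (SE 0.10) to 8.60 CPM. The edgeR adjusted p of these 4 was 9.18e-07 or less. Of the exon bases of Grk5, 76.7% lie within the span of another gene of the count table, Zfp950, and 0% in its exons. How reads from that stretch were counted is not given in the sources used here. Grk2, the kinase best known for desensitising CXCR4, was at 1069 ± 16.7 and 1086 ± 13.0 CPM (edgeR adjusted p = 0.508).

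Genes that set S1P levels or control S1PR1 were tested in 14 of 17 cases, and 5 were higher and 0 lower (1 lower without control replicate 3), with a median of 0.10. Cd69, which binds S1PR1 and takes it off the surface, rose from 41.1 ± 2.08 to 59.1 ± 1.77 normalised CPM (log2 fold change 0.53 with SE 0.04, edgeR adjusted p = 9.50e-11). Foxo1, a transcription factor that acts on lymphocyte homing genes, rose from 150 ± 1.74 to 198 ± 4.12 (0.40 with SE 0.03, edgeR adjusted p = 3.26e-12). Gna13, the G protein of S1PR2, rose by 0.13 (edgeR adjusted p = 0.00123). Sgpl1, the S1P lyase, rose by 0.17 (0.0256), a call lost without control replicate 4 (0.0658) or osteoclast-conditioned replicate 3 (0.0911), with total-count scaling (0.0505) and by DESeq2 (0.0795). Arhgef1, which acts after Gna13, was at 462 ± 12.0 and 459 ± 9.51 CPM.

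The proteins that link CD44 and PSGL-1 to the cytoskeleton, or cleave CD44, were tested in 15 of 20 cases, with 5 higher, 2 lower and a median of 0.02. The count of lower genes was 1 by DESeq2, with no filter, and without control replicate 3 or 4 or osteoclast-conditioned replicate 1, 3 or 4. Iqgap1, a scaffold of the actin cortex, rose by 0.17 (SE 0.03), Ezr, the linker ezrin, by 0.14 (SE 0.03) and Mmp14, a protease that sheds CD44, by 0.14 (SE 0.03). Hmmr, a hyaluronan receptor that is also a mitotic spindle protein, fell from 181 ± 8.51 to 154 ± 5.19 normalised CPM (log2 fold change -0.24 with SE 0.03, edgeR adjusted p = 2.19e-06). The other 3 had edgeR adjusted p of 0.00320 or less. Slk, a kinase that phosphorylates ezrin, was at 186 ± 9.93 and 194 ± 3.63 CPM and did not pass the test (edgeR adjusted p = 0.198), but passed it without control replicate 3 (0.0207).

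The B-lineage marker sum, which was also higher without overlap in osteoclast-conditioned media (above), moved in the same direction as Itgal, Itgb2, Itga4 and Itga6. Its part in those results was not tested. The markers did not all move alike: of the 9, 6 were called higher, 1 lower and 2 neither. That is 77.8% called, against 30.5% of all tested genes. The labels name no batch, so no value could be repeated within batches.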

How the data were processed

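RNA of 8 PER-M60 cultures was sequenced from SureSelect libraries, per the labels' protocols. The authors deposited raw read counts per Ensembl gene; STAR 2.7.5a, featureCounts 2.0.1 and mm10 are named in the submitters' processing notes, and strand use is not given in the sources used here. Of 21859 gene IDs, 21817 matched GENCODE M21 (GRCm38). Cultures were grouped by their labelled medium; nothing says that they came from separate flasks or days, so p-values measure only the spread between these samples, which may be technical.

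Counts were filtered with filterByExpr, scaled by TMM and tested with edgeR 4.0.16 in R 4.3.3 (quasi-likelihood, robust, medium only), with Benjamini-Hochberg adjustment over 10729 genes. The code was tested on simulated data. CPM are counts scaled by TMM. Relative to the library total without that scaling, 3 counts correspond to 0.139 to 0.195 CPM. Integrin chain ratios were tested by exact permutation (scipy 1.17.1). Alternatives included DESeq2 1.42.0, limma-voom (limma 3.58.1), other scalings and filters, and leaving out each culture.

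The members and lists were chosen with earlier results of these data known. Named genes are the 9 receptors, up to 4 called genes per list with the largest absolute log2 fold change, the 1 tested but uncalled gene with the highest mean CPM, and the 3 genes most correlated with the receptor of smallest p. Genes outside that rule (Lyz2, Itgax, Itgam, Ackr3, Cxcl12, Vcam1, Sele) were named after their values were seen. So were cell-type markers named for passing the filter (Acp5) or for having no counts (Ocstamp, Dcstamp, C1qa, Cd3g, Cd8a, Col1a2, Pdgfra). Cd79a and Pax5, also outside the rule, were named as examples of the B-lineage list. Some genes that the rule names are not reported here.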

Additional observations from a re-analysis of the deposited data

Results flagged for a closer look

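Within groups of 4 cultures, 1 culture was set apart from the other 3 by a gap larger than Dixon's 95% critical ratio for 4 values in 10 of 112 groups examined (53 genes and 3 ratios), where chance gives about 5.6. Of the 10, 6 were on osteoclast-conditioned replicate 4. That culture was at 1.79 in the Itgal to Itgb2 count ratio against 1.58 to 1.59 in the others, at 62.7 CPM in Itgav against 71.1 to 72.6, and at 0.875 CPM in Itgad against 1.13 to 1.17. It was at 754 CPM in Cd93 against 794 to 797, at 161 in Galnt1 against 168 in each of the others, and at 8.81 in Fuk against 7.88 to 7.96. The same culture had the highest mitochondrial share of counts, 1.44%, whose part in these values was not tested. Elsewhere, Cd44 was at 139 CPM in osteoclast-conditioned replicate 2 against 144 in each of the others. Cd74 was at 16.2 CPM in osteoclast-conditioned replicate 3 against 14.4 to 14.6. Control replicate 3 was at 13.6 CPM in Ccr2 against 11.3 to 11.6, and at 62.5 CPM in Pecam1 against 61.6 to 61.7.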

How the results depend on the processing

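Itgal was called under all 21 alternatives (log2 fold change 0.46 to 0.50); Itga4, Itga6, Itgb2 and Selplg were called under all but the test against 1.2-fold. That test called 227 of all genes (161 higher, 66 lower) against 3273 (1689 higher, 1584 lower), 1 receptor (1 higher, 0 lower) against 5, and 9 list genes (9 higher, 0 lower; 0 to 2 in each list) against 66. An adjusted p under 0.01 left 2147 genes, 948 of them lower. Scaling by total counts moved the split of all genes to 1383 higher and 2012 lower. Without single cultures, 2635 to 3578 genes (3578 without control replicate 2), 5 to 6 receptors and 56 to 69 list genes were called, and the log2 ratios differed by 0.14 to 0.18 (Itga4 to Itgb1), 0.21 to 0.26 (Itga6 to Itgb1) and 0.23 to 0.30 (Itgal to Itgb2). Deviations from the mean of each medium correlated at -0.03, 0.09, -0.05 and 0.14 between same-numbered cultures. The mean was -0.01 between differently numbered ones. From only 4 pairs, these values cannot decide whether the replicate numbers pair the cultures. With the replicate number as a block, 3446 genes and 6 receptors were called, Cxcr4 among them (log2 fold change 0.09, edgeR adjusted p = 0.0445). Under that block the ratio differences were again 0.17, 0.23 and 0.27, with an exact sign-flip p of 0.125, the smallest 4 pairs allow. Signs turned for Cd44 with total-count (-0.0195) and upper-quartile scaling (-0.0072) and for Sipa1 with total counts (-0.0086). Leaving out single cultures gave -0.0171 to 0.0283 for Cd44, -0.0210 to 0.404 for S1pr1, -0.0023 to 0.0337 for Sipa1, -0.0626 to 0.0345 for Icam1, -0.0397 to 0.0228 for Galnt1 and -0.0260 to 0.0067 for Arhgef1. None of these 6 genes was called. The cause was not tested. S1pr1, with at most 58 counts per culture, has no value under the filter of a mean of at least 50 counts.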

Other observations

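The 4 control cultures agreed more closely in Itgal than counting error alone would give: their coefficient of variation was 0.421%, against 2.20% from the counts. In osteoclast-conditioned media Itgal varied by 3.71% against 1.84%. Itga4 had the largest excess over counting error of the 9 receptors, with 5.09% against 1.39% in control and 3.73% against 1.28% in osteoclast-conditioned media. Itga6, Cxcr4, Itgb1 and Itgb2 also varied by more than counting error in both media, by 1.06 to 2.04 times. Cd44, Selplg and S1pr1 did so in control media, by 1.79 to 2.13 times, and not in osteoclast-conditioned media, at 0.793 to 0.893 times.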
